A study of Homo sapiens with 3 samples.

Results

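The core circadian clock genes were followed in A375, an established human melanoma cell line. The set was given as a list of 10 symbols, ARNTL (now also called BMAL1), CLOCK, PER2, PER3, CRY1, CRY2, NR1D1, NR1D2, DBP and TEF, and each was found once among the 58037 genes of the count table. All 10 passed the filter on low counts, a mean normalised count of at least 20. Cells were kept for 24 h in serum-free DMEM (control) or in the secretome, serum-free DMEM that adipocytes had conditioned, of either young adipocytes (YA) or old ones (OA). There was 1 library per group, and the exposed cells are called YA-A375 and OA-A375. Per the study's methods, the adipocytes had been differentiated from donor preadipocytes with insulin, dexamethasone, indomethacin and IBMX and then held in maintenance medium before the secretome was collected. The number of donors behind each secretome library was not given in the sources used here. The treatment protocol in the labels gives 24 to 48 h in place of a single time.

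As background, the mammalian clock is a loop of transcription. ARNTL and CLOCK bind as a pair to E-box letters in DNA and switch on the PER and CRY genes, whose proteins return to the nucleus and block that pair. A further loop runs through the nuclear receptors NR1D1 and NR1D2 (REV-ERB alpha and beta), which repress ARNTL through ROR elements, while RORA and its relatives activate there. DBP and TEF are transcription factors of the PAR bZIP family that carry the rhythm to genes with D-box letters, and NFIL3 represses the same sites. In cultured cells the loops drift out of step with each other from cell to cell until a cue such as serum, cAMP or a glucocorticoid resets them.

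The letters that these factors bind were looked up in the promoter windows of RefSeq (GRCh38.p14, 250 bases before to 50 after each start), where all 10 genes matched with 16 windows. The search used both strands and took CACGTG as the E-box, CACGTT as the E'-box, TTATG followed by TAA or CAA as the D-box, and TAGGTCA or TGGGTCA as the ROR element. Of all 35116 windows, 7.26% held an E-box, 5.34% an E'-box, 1.71% a D-box and 5.69% a ROR element. Among the 10 genes an E-box was present for NR1D2 and TEF, an E'-box for CLOCK, CRY1, CRY2, NR1D1 and PER2, a D-box for NR1D2 and PER3, and a ROR element for ARNTL, CLOCK, CRY2 and NR1D2. Counted by window, as the shares over all windows are, 3 of their 16 windows held an E-box and 5 an E'-box. A D-box was in 2 of the 16 and a ROR element in 4. DBP had none of these letters in its window. The stretches below show those letters in place for 7 members, with CLOCK, CRY2 and the second start of TEF left out for length or repetition. Each runs 5′ to 3′ on the strand of its gene with the motif in capitals, and the D-box and ROR element of NR1D2 are read from the other strand.
PER2 (chr2:238288790-238288819, minus strand, intron, E'-box): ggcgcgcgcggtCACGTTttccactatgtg
CRY1 (chr12:107093621-107093650, minus strand, exon, E'-box on the other strand): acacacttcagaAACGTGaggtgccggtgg
NR1D1 (chr17:40100740-40100769, minus strand, upstream of the gene, E'-box on the other strand): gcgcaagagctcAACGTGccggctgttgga
PER3 (chr1:7784102-7784133, plus strand, upstream of the gene, D-box): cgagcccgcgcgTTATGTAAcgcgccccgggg
TEF (chr22:41367248-41367277, plus strand, upstream of the gene, E-box): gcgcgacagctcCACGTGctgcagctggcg
ARNTL (chr11:13277809-13277837, plus strand, exon, ROR element): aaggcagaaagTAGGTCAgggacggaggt
NR1D2 (chr3:23945915-23946033, plus strand, intron, D-box, E-box, ROR element, E-box): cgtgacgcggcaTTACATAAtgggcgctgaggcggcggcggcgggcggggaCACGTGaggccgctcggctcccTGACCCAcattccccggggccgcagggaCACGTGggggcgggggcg

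The NR1D2 stretch holds all 3 motif classes of the loops within 119 bases. The place of each stretch (intron, exon, upstream) is that in GENCODE 29. A match of letters is a description of the window and not a binding site.

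**Figure D1:**
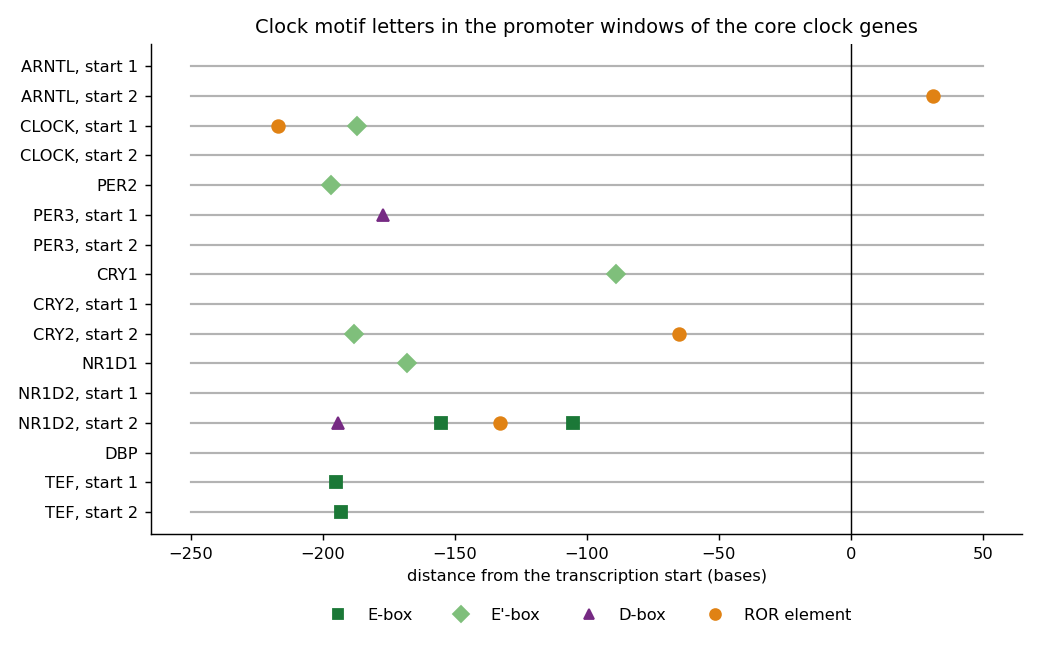
Position of E-box, E'-box, D-box and ROR element letters (symbols) in the 16 RefSeq promoter windows of the 10 core clock genes (grey lines), in bases from the transcription start. NR1D2 start 2 carries 4 matches and the DBP window none, and the ARNTL match lies after the start.

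The control library held 21448195 counts, YA 21306558 and OA 18089008, and the 10 clock genes together held 5510, 4892 and 6148 of them. Counts were divided by size factors of 1.06, 1.06 and 0.891, and a gene was called higher or lower from 1.2-fold. The study's methods give 1.2 for raised genes passed to a pathway analysis, without saying whether it is a fold or a log2 value, and the use of it for lower genes was chosen here. With 1 library per group no test of the conditions was possible, and each fold is given with a 95% Clopper-Pearson interval that covers counting error only and compares libraries. Melanoma markers were mixed, and 3 of 8 passed the filter on low counts. In control, YA and OA, MITF had 1221, 764 and 881 counts and S100B 843, 591 and 550. MITF was 0.628-fold of control with YA (0.573 to 0.688) and 0.860-fold with OA, and S100B 0.703-fold (0.632 to 0.782) and 0.777-fold. MLANA had 22, 18 and 16 counts, S100A1 19, 30 and 15, PMEL 2, 10 and 10, DCT 2, 1 and 2 and TYR 2, 0 and 0. SOX10 was listed at 0 in all 3 libraries, where the 1-sided 95% upper limit is 3 counts. Each group was sampled once, so a shift in phase, a change in amplitude and a change in mean level of a rhythmic gene cannot be told apart. In bulk RNA, more cells that express a gene and more RNA per cell cannot be told apart either.

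The library with the highest level differed between members. How often each library was highest or lowest was not counted over all genes tested, so these placings only describe the members. OA held the highest level of 6 members (CLOCK, PER3, NR1D1, NR1D2, DBP and TEF), YA of 2 (ARNTL and CRY2) and control of 2 (PER2 and CRY1). YA held the lowest level of 7 members (CLOCK, PER2, PER3, CRY1, NR1D2, DBP and TEF) and OA of none. The YA interval was apart from that of the next lowest library only for PER2, PER3 and NR1D2. It overlapped that of control for CLOCK, DBP and TEF and that of OA for CRY1. The counting intervals of the highest and the next library overlapped for PER2 (control and OA) and for CRY2.

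In the activating arm, ARNTL counts were higher than control with both secretomes and CLOCK was nearer to control. ARNTL (ENSG00000133794.17; chromosome 11, 13276652 to 13387266, plus strand) had 200 counts in control against 411 for YA and 262 for OA, or 188, 388 and 294 normalised counts. That is 2.06-fold of control with YA (interval 1.74 to 2.45) and 1.56-fold with OA (1.29 to 1.89). The 3 counting intervals of its level did not overlap, and YA was highest. CLOCK (ENSG00000134852.14; chromosome 4, 55427903 to 55547138, minus strand), the partner of ARNTL, had 1445 normalised counts in control against 1351 for YA and 1770 for OA. Its fold was 0.935 with YA (0.869 to 1.01) and 1.23 with OA (1.14 to 1.32), which lies just past the cutoff.

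Both activators have a relative that was read beside them. NPAS2, which can stand in for CLOCK, had 3920 normalised counts in control against 5407 for YA and 4165 for OA, a 1.38-fold difference in YA (1.32 to 1.44). ARNTL2, the relative of ARNTL, had 516, 391 and 963 normalised counts. ARNTL2 stood at 1.87 times control with OA (1.67 to 2.08) and 0.758-fold in YA (0.665 to 0.862). ARNTL and ARNTL2 thus had their highest levels in different libraries.

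In the repressing arm PER2, PER3 and CRY1 were lower in YA than in control, while PER1 was higher. PER2 (ENSG00000132326.11; chromosome 2, 238244038 to 238290102, minus strand) had 85 counts in control against 45 for YA and 69 for OA. Its fold was 0.531 with YA (0.361 to 0.771) and 0.967 with OA (0.693 to 1.34). PER3 (ENSG00000049246.14; chromosome 1, 7784320 to 7845177, plus strand), another period gene, had 74, 27 and 104 counts. PER3 went to opposite sides of control, with a fold of 0.366 with YA (0.226 to 0.576) and 1.67 with OA (1.23 to 2.29). YA against OA it stood at 0.219-fold (0.138 to 0.336), the largest difference of any member between any pair of libraries.

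PER1, which is not among the 10 members but encodes the third period protein, had 582 counts in control against 3339 for YA and 610 for OA. It was 5.75-fold of control with YA (5.27 to 6.29) and 1.25-fold with OA (1.11 to 1.40). The 3 period genes therefore did not move as a group in YA. PER1 is also a gene that responds to glucocorticoids, as are TSC22D3 and FKBP5, which had 66.9 and 612 normalised counts in control, 736 and 2041 in YA and 55.0 and 703 in OA. TSC22D3 and FKBP5 had the highest YA folds of the 14 tested genes of cues that set the clock, while SGK1 of that list was 1.15-fold (1.09 to 1.21). The part of these genes in the values of PER2 and PER3 was not tested.

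CRY1 (ENSG00000008405.11; chromosome 12, 106991364 to 107093829, minus strand) was the only member lower than control by at least 1.2-fold in both secretomes, which share that control. It had 667 counts in control against 382 for YA and 393 for OA. Its fold was 0.574 with YA (0.505 to 0.652) and 0.702 with OA (0.618 to 0.796). CRY2 (ENSG00000121671.11; chromosome 11, 45847118 to 45883248, plus strand) had 96, 117 and 88 counts. The CRY2 fold was 1.22 with YA (0.925 to 1.62) and 1.09 with OA (0.808 to 1.47), so no difference was detectable at this depth.

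The nuclear receptors of the further loop gave the highest counts in OA. NR1D1 (ENSG00000126368.5; chromosome 17, 40092787 to 40100725, minus strand) had 336 counts in control against 472 for YA and 772 for OA, or 317, 446 and 867 normalised counts. It was 1.41-fold of control with YA (1.22 to 1.63) and 2.74-fold with OA (2.40 to 3.12), with no overlap among the intervals of the 3 levels. NR1D2 (ENSG00000174738.12; chromosome 3, 23945260 to 23980618, plus strand), the most abundant member, had 2126, 1698 and 2714 normalised counts. NR1D2 lay on opposite sides of control, at 0.798-fold with YA (0.750 to 0.850) and 1.28-fold with OA (1.21 to 1.35). Both receptors were thus above control in OA, and in YA they lay on opposite sides of it. With a correction for length and GC content the YA difference of NR1D2 was -0.23 on the log2 scale and no longer past the cutoff.

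RORA, an activator that competes with both receptors for ROR elements, had 50 counts in control against 56 for YA and 115 for OA. RORA stood at 2.74 times control with OA (1.95 to 3.90) and 1.12-fold in YA (0.753 to 1.68). Both receptors and RORA were thus highest in OA, but this did not hold for RORB, a relative of RORA. RORB had 309, 256 and 274 normalised counts.

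The output factors DBP and TEF were both highest in OA. DBP (ENSG00000105516.10; chromosome 19, 48630030 to 48637438, minus strand) had 107 counts in control against 89 for YA and 226 for OA. Its fold was 2.52 in OA (1.99 to 3.20) and 0.834 in YA (0.623 to 1.12), just short of the cutoff. TEF (ENSG00000167074.14; chromosome 22, 41367333 to 41399326, plus strand) had 156, 124 and 239 counts. TEF was 1.83-fold of control in OA (1.49 to 2.25), and 0.797-fold with YA (0.625 to 1.02). YA against OA, DBP stood at 0.332-fold (0.256 to 0.426) and TEF at 0.437-fold (0.349 to 0.545).

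NFIL3, the repressor at D-boxes, had 171 counts in control against 446 for YA and 190 for OA, a 2.62-fold difference in YA (2.19 to 3.14). The E-box repressors BHLHE40 and BHLHE41 were highest in OA. BHLHE40 was 1.92-fold of control in OA (1.74 to 2.12) and 1.21-fold in YA (1.09 to 1.35). BHLHE41 had 73, 53 and 142 counts and was 2.32-fold in OA (1.74 to 3.12). CIART, a repressor of the ARNTL and CLOCK pair, had 8, 11 and 15 counts and HLF, the third PAR bZIP factor, 1, 0 and 1, and neither passed the filter.

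**Figure D2:**
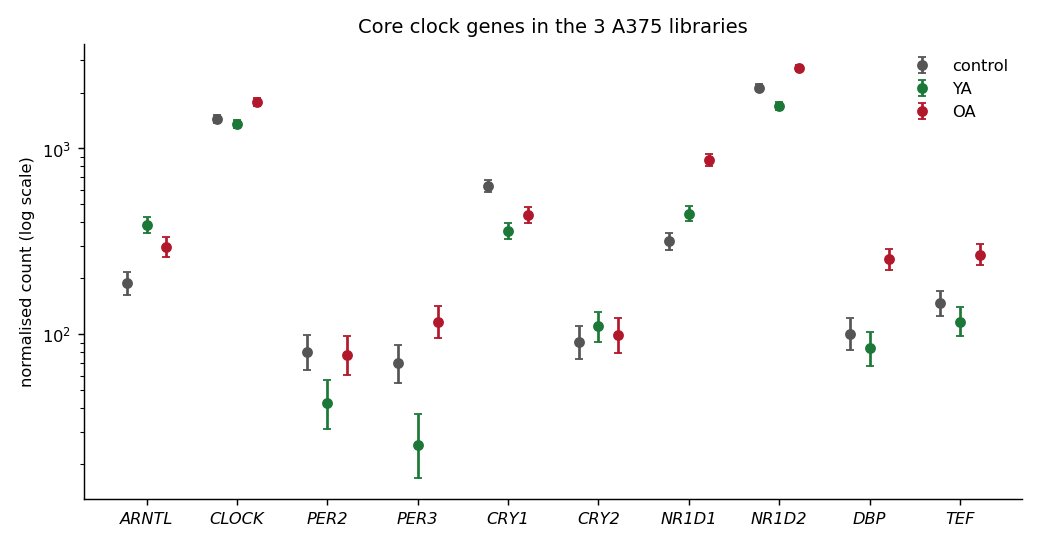
Normalised counts (log axis) of the 10 core clock genes in control, YA and OA, 1 library each, with 95% Poisson counting intervals as bars. ARNTL is highest in YA, and NR1D1, DBP, TEF and PER3 are highest in OA, while the 3 intervals of CRY2 overlap.

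**Figure D3:**
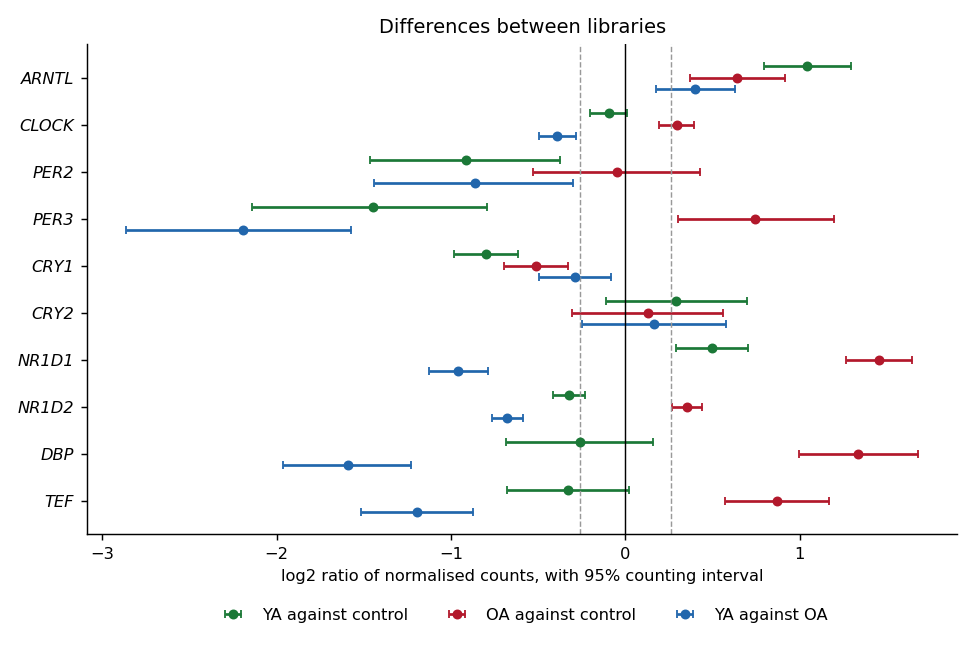
Log2 ratio of normalised counts for each core clock gene in the 3 comparisons, with 95% Clopper-Pearson counting intervals as bars and no pseudocount. Dashed lines mark 1.2-fold. CLOCK, PER3, NR1D2, DBP and TEF lie left of 0 for YA against control and right of 0 for OA against control, but the CLOCK, DBP and TEF intervals in YA cross 0.

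Counted together, 3 of the 10 members passed 1.2-fold upward from control to YA (ARNTL, NR1D1 and CRY2) and 5 were lower (PER2, PER3, CRY1, NR1D2 and TEF), beside 17.4% and 16.4% of all 14413 genes tested. With the interval wholly beyond 1.2-fold, 2 members were higher (ARNTL and NR1D1) and 3 lower (PER2, PER3 and CRY1), beside 6.03% and 4.44% of all genes. With the length and GC correction CRY2 and NR1D2 were no longer past the cutoff and DBP was. The median log2 fold change of the members was -0.29, while that of all genes tested was -0.02.

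In OA 7 members were higher than in control (ARNTL, CLOCK, PER3, NR1D1, NR1D2, DBP and TEF) and 1 was lower (CRY1), beside 21.1% and 21.5% of all genes. For 6 of the 7 the interval lay wholly beyond 1.2-fold, CLOCK being the exception, and it did so for CRY1, beside 9.04% and 9.08% of all genes. The median log2 fold change was 0.50 for the members and 0.01 for all genes tested.

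Between the secretomes 8 members were lower in YA than in OA and 1 (ARNTL) was higher, beside 21.5% and 23.0% of all genes. The interval lay wholly beyond 1.2-fold for 7 of the 8, the exception being CRY1, beside 9.03% of all genes. The CRY1 call was lost under protein-coding scaling and under the length and GC correction. The median log2 fold change was -0.76 for the members and -0.01 for all genes. ARNTL stood at 1.32-fold (1.13 to 1.55) in this comparison, and CLOCK, its partner, at 0.763-fold (0.710 to 0.820).

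Ratios within a library do not depend on the scaling between libraries, so pairs of members were also read that way. ARNTL held 37.3% of the summed counts of ARNTL and NR1D1 in control cells (95% Clopper-Pearson interval 33.2 to 41.6), 46.5% after YA (43.2 to 49.9) and 25.3% after OA (22.7 to 28.1). Of ARNTL and DBP together, ARNTL held 65.1% in control cells (59.5 to 70.5), 82.2% after YA (78.6 to 85.5) and 53.7% after OA (49.2 to 58.2). In both pairs the 3 intervals were apart, with YA on the ARNTL side of control and OA on the other side. Against NR1D2 the ARNTL share was 8.14% in control cells (7.09 to 9.30), 18.6% after YA (17.0 to 20.3) and 9.78% after OA (8.68 to 10.96), so here control and OA overlapped.

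Some pairs of paralogs also differed in their balance between libraries. CRY1 held 87.4% of the counts of CRY1 and CRY2 in control cells (84.9 to 89.7), 76.6% after YA (72.6 to 80.2) and 81.7% after OA (78.0 to 85.1), and the OA interval overlapped those of both control and YA. NR1D1 held 13.0% of the counts of NR1D1 and NR1D2 in control cells (11.7 to 14.3), 20.8% after YA (19.2 to 22.5) and 24.2% after OA (22.7 to 25.7). The NR1D1 share in control was thus apart from that in YA and OA. PER2 held 53.5% of PER2 and PER3 in control cells (45.4 to 61.4), 62.5% after YA (50.3 to 73.6) and 39.9% after OA (32.5 to 47.6), where only YA and OA were apart. DBP held 40.7% of DBP and TEF in control cells (34.7 to 46.9), 41.8% after YA (35.1 to 48.7) and 48.6% after OA (44.0 to 53.2), and these 3 intervals overlapped.

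**Figure D4:**
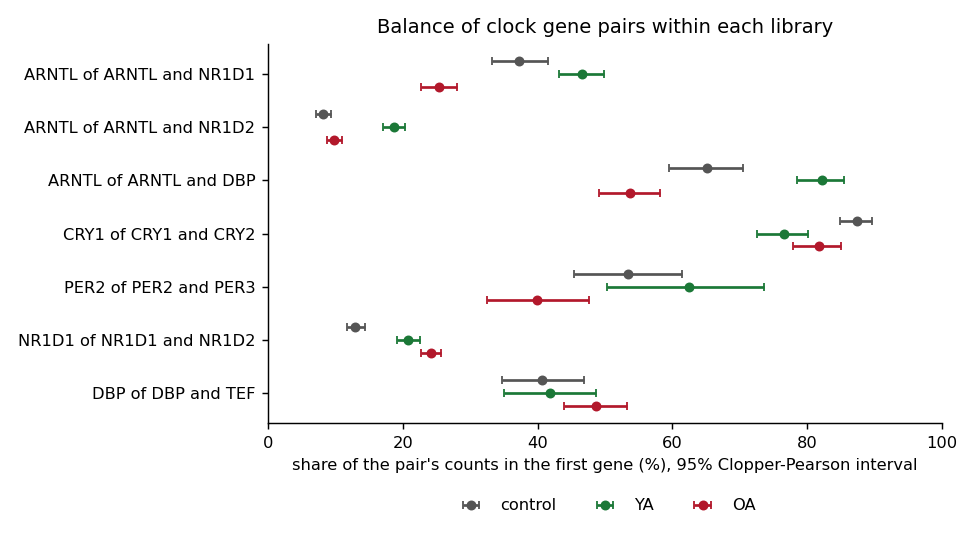
Share (%) of a pair's summed counts held by the first gene named, in control, YA and OA, with 95% Clopper-Pearson counting intervals as bars. ARNTL takes more of each of its pairs in YA than in control or OA, and the shares of DBP in DBP and TEF overlap in all 3 libraries.

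Levels of different genes were compared per length, as RPKM, the counts scaled for exon length and for the library's total. In control NR1D2 led with 18.1, followed by CRY1 with 6.14, CLOCK with 6.08 and NR1D1 with 5.65, whose intervals overlapped. TEF (1.54) and ARNTL (1.39) came next and overlapped, then DBP (0.762), CRY2 (0.722) and PER2 (0.576), which also overlapped, and PER3 (0.426) was last, within the interval overlap of PER2. In YA, NR1D1 was second with 7.99 and PER3 was again last with 0.156, where its interval overlapped that of PER2. In OA, NR1D1 reached 15.4 and was second to NR1D2 with 23.0, and TEF with 2.80 stood above ARNTL with 2.15. PER2 with 0.555 was last in OA, but its interval overlapped those of PER3 and CRY2. With the longest transcript as length the order of TEF and ARNTL turned, to 3.75 for ARNTL and 3.01 for TEF in OA, and it turned in control too. The spread from highest to lowest member was therefore wide in every library, and NR1D2 led in all 3.

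Some members share exon bases with a gene on the opposite strand, and the use of strand in counting was not given in the sources used here. NR1D1 shared 263 of its 2772 exon bases with THRA, which had 815, 772 and 996 normalised counts in control, YA and OA and so was highest in OA, as NR1D1 was. DBP shared 661 of 6544 bases with SPHK2, which had 544, 569 and 498 normalised counts. PER3 shared 1350 of 8099 bases, 868 of them with UTS2, which had 4, 0 and 1 counts, and 482 with the antisense gene Z98884.1. CLOCK shared 103 of 11762 bases, PER2 188 of 6877 and CRY1 94 of 5062. Reads from all these bases cannot be told apart without strand, and their part in the values of these members was not tested. ARNTL, CRY2, NR1D2 and TEF shared no exon base with another gene in GENCODE 29.

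Lists of other clock genes were read in the same way, 73 genes in 5 lists, of which 68 passed the filter. Their counts stand beside the same shares over all genes, 17.4% higher and 16.4% lower in YA and 21.1% and 21.5% in OA. Of the 9 tested clock transcription factors outside the members, 4 were at least 1.2-fold higher and 3 lower in YA, and 7 were higher and none lower in OA, with medians of 0.16 and 0.40 on the log2 scale. The 19 tested kinases, ubiquitin ligases and deubiquitinases that act on clock proteins had 2 higher and 2 lower in YA and 1 higher and 2 lower in OA. Their medians were 0.00 and -0.01. GSK3B, a kinase that acts on several clock proteins, was 0.680-fold of control in OA (0.650 to 0.712), and HUWE1, a ubiquitin ligase, was 1.27-fold in YA (1.24 to 1.29). Of the 15 cofactors 1 was higher in YA, the acetyltransferase EP300 at 1.31-fold (1.23 to 1.39), and 1 was lower in OA, and their medians were -0.05 and 0.03.

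Of 11 genes driven by the clock in several tissues, 4 were higher and 1 lower in YA, and 5 higher and 3 lower in OA. Their directions were mixed. WEE1, a kinase that holds back entry into mitosis, was 1.96-fold of control with YA (1.79 to 2.15) and 0.893-fold with OA (0.796 to 1.00). NAMPT, the rate-limiting enzyme of NAD salvage, was 1.73-fold in OA (1.65 to 1.82) and 1.04-fold in YA (0.987 to 1.10). The transcription factor KLF10 was higher in both, at 1.85-fold in YA and 1.72-fold in OA. CDKN1A, the inhibitor p21 of cyclin-dependent kinases, was 1.57-fold in OA and 1.06-fold in YA. On the lower side in OA stood PPARA at 0.656-fold, KLF9 at 0.578-fold and KLF15 at 0.248-fold (0.173 to 0.347). In YA, KLF9 was 1.35-fold and KLF15 0.899-fold (0.731 to 1.10).

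Of 14 tested genes of cues that set the clock, 3 were higher and none lower in YA, and 1 was higher and 3 were lower in OA, which is near those shares for the higher genes in YA and the lower ones in OA. TSC22D3 was 11-fold of control in YA (8.62 to 14.2) and FKBP5 3.34-fold (3.05 to 3.65), and DUSP1, a MAP kinase phosphatase, 1.56-fold (1.41 to 1.72). In OA, DUSP1 was 0.673-fold and the kinase SGK1 0.503-fold, and SGK1 was 1.15-fold in YA (1.09 to 1.21). NR3C1, the glucocorticoid receptor, had 2147 normalised counts in control against 2050 for YA and 2418 for OA, or 1.13-fold of control with OA.

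**Figure D5:**
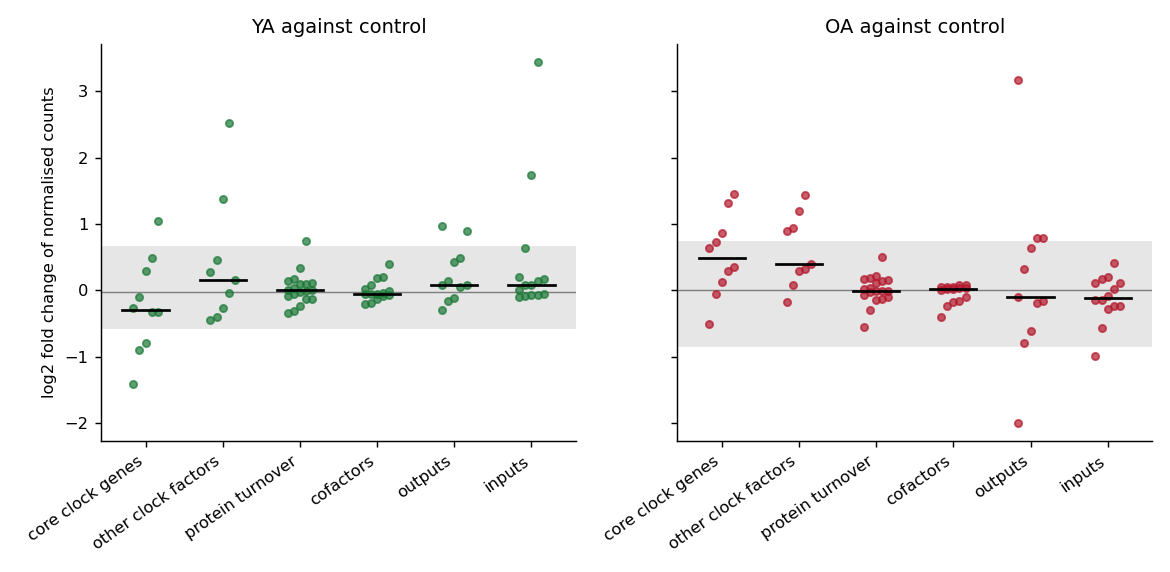
Log2 fold change of normalised counts (pseudocount 1) for each tested gene of the core clock genes and of the 5 other clock lists, in YA and OA against control. Points are genes, black bars are list medians, and the grey band spans the 5th to 95th percentile of all 14413 genes tested. The core clock genes, the other clock factors, the outputs and the inputs reach beyond the band in both comparisons and protein turnover in YA, while the 15 cofactors lie within it.

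Of the 7 members whose normalised counts averaged 100 or more, NR1D1 had the largest fold against control. Among 11161 other genes at that depth, the 3 nearest to it in the plane of both log2 fold changes against control were EVA1C, ARHGAP44 and VCAN. EVA1C had 104 counts in control against 145 for YA and 241 for OA and lay 0.015 log2 units away, and VCAN, a matrix proteoglycan, had 117, 161 and 279. This likeness rests on 3 libraries.

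RNA of the secretome's own cells was looked for through marker lists beside these results. The 8 adipocyte markers summed to 1898 normalised counts in control against 2489 for YA and 1841 for OA, and 1, 2 and 2 of them were at 0. Most of the sum was PPARG, ADIPOQ had 1, 0 and 0 counts and LEP none. LPL had 353, 583 and 30 counts, CIDEC 6, 31 and 36, CFD 28, 35 and 40, FABP4 16, 15 and 2 and PLIN1 2, 5 and 2, so single markers differed in both directions. The 8 fibroblast markers summed to 831, 1041 and 677 normalised counts, and 1, 0 and 0 of them were at 0. PDGFRB, with 515, 568 and 334 counts, made up most of this sum in every library, control included. COL1A2 had 1, 1 and 2 counts and COL3A1 0, 1 and 1, while COL1A1 had 75, 117 and 84, LUM 66, 101 and 58, DCN 13, 138 and 24, FBLN1 136, 155 and 49 and PDGFRA 76, 20 and 51. Both sums were highest in YA, and their part in the values of the clock genes was not tested.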

How the data were processed

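Poly(A) RNA of A375 was sequenced for 3 libraries, 1 per group, from SureSelect (Agilent) libraries on a NovaSeq. The authors deposited raw counts per gene. The submitters' processing notes name STAR 2.5.1b, featureCounts, R 3.6.1 and hg38, with no role or order, and the annotation release and the use of strand are not given in the sources used here. Counts were divided by DESeq2 1.42.0 size factors (R 4.3.3), and the study's methods also name DESeq2. Testing kept genes whose normalised counts averaged 20 or more, log2 fold changes took a pseudocount of 1, and intervals of folds came from the reads of 2 libraries without it. Only counting error is covered by the intervals and by the limit of 3 counts, because PCR copies of a molecule were not told apart by identifiers. No p-value was computed, because 1 library per group leaves no residual degrees of freedom, and edgeR's quasi-likelihood test could not be fitted. Positions and lengths came from GENCODE 29 (GRCh38), which matched 57433 of 58037 identifiers.

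The members and lists were chosen with earlier results of these data known. All 10 members and PER1 were named whatever their values, other listed genes where the interval lay wholly beyond 1.2-fold against control in YA or OA, and 3 genes nearest to the member that differed most. RORB, CIART, HLF, NR3C1, the genes that overlap a member and the marker genes given by count were added after their values had been seen. The steps that give folds and calls were tested on simulated counts. Alternatives were edgeR 4.0.16 TMM, total-count and protein-coding scaling, other filters, thresholds and a pseudocount of 5, a length and GC correction and another gene length. Protein identity between paralogs was not analysed here, and some genes of the lists are not reported here. Python 3.11.15, numpy 2.4.6, scipy 1.17.1, pandas 2.3.3 and matplotlib 3.10.9 were used.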

Additional observations from a re-analysis of the deposited data

How the results depend on the processing

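No log2 fold change of a member past 1.2-fold changed sign under the 3 other scalings, a pseudocount of 5 or a correction for length and GC content, and the largest shift was 0.154. The correction took NR1D2 in YA from -0.32 to -0.23, outside its counting interval and short of the cutoff, and also took CRY2 in YA (0.25) and CRY1 between YA and OA (-0.21) short of it and DBP in YA (-0.33) past it. Protein-coding scaling took CRY1 between YA and OA to -0.26. The cause was not tested. The medians of the members stayed within -0.29 to -0.27 in YA, 0.48 to 0.54 in OA and -0.78 to -0.74 between the secretomes.

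Counts of members past the cutoff stayed within 1.5 times their value under every scaling, with no filter, with a pseudocount of 5 and under the correction, and fell with stricter thresholds by construction. In YA against control, 3 higher and 5 lower became 1 and 3 at 1.5-fold, 1 and 1 at 2-fold and 0 and 1 at a log2 fold change of 1.2, with 3 lower by the interval and 3 lower at a mean of at least 100, where 7 members were tested. In OA, 7 and 1 became 2 and 0 at 2-fold and at log2 1.2, with 0 lower at 1.5-fold. Between YA and OA, 1 higher and 8 lower became 0 and 3 at 2-fold and 0 and 2 at log2 1.2, with 0 higher at 1.5-fold and by the interval. For the 68 other clock genes, 14 higher and 6 lower in YA became 8 and 0 at 1.5-fold, 4 and 0 at 2-fold and at log2 1.2, and 0 lower by the interval. In OA, 14 and 9 became 8 and 4 at 1.5-fold, 3 and 1 at 2-fold and at log2 1.2, and 8 higher by the interval. Between YA and OA, 19 and 10 became 9 and 6, 8 and 4, and 6 and 4 at those thresholds, and 11 higher by the interval. With the correction 13 were higher between YA and OA.

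Among all genes, 2501 higher and 2370 lower in YA became 901 and 652 at 1.5-fold, 310 and 140 at 2-fold, 174 and 86 at log2 1.2, 869 and 640 by the interval, 1404 and 1451 at a mean of at least 100 and 9661 and 9306 with no filter. In OA, 3048 and 3092 became 1089 and 1270, 412 and 535, 282 and 402 and 1303 and 1308 in that order of thresholds, 1947 lower at a mean of at least 100 and 8340 and 10895 with no filter. Between YA and OA, 3315 and 3104 became 1487 and 1106, 639 and 438, 441 and 304 and 1444 and 1301, 1991 higher at a mean of at least 100 and 10917 and 8049 with no filter. Genes tested were 14413 at each threshold, 11162 at a mean of at least 100 and 32257 with no filter. As shares in YA, 6.25% were higher and 4.52% lower at 1.5-fold, and 2.15% and 0.971% at 2-fold. The shares were 1.21% and 0.597% at log2 1.2, and 12.6% and 13.0% at a mean of at least 100.

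With the longest transcript as length, RPKM levels in control were 2.41 for ARNTL, 6.94 for CLOCK, 0.546 for PER3, 8.11 for CRY1, 1.06 for CRY2 and 20.0045 for NR1D2, which puts ARNTL above TEF (1.66) and CRY2 above DBP (0.867). PER2 had 45 to 85 counts and PER3 27 to 104, which limits their precision, and no library could be left out with 1 per group. No paired analysis was possible because each group has 1 library.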

Other observations

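Some pairs that join a member with a clock gene outside the set were chosen after their values had been seen, and are given as values. NFIL3, which represses D-box genes, held 61.5% of the counts of NFIL3 and DBP in control cells (95% Clopper-Pearson interval 55.5 to 67.3), 83.4% after YA (79.9 to 86.4) and 45.7% after OA (40.8 to 50.6). ARNTL2 held 73.3% of the counts of ARNTL2 and ARNTL in control cells (69.9 to 76.4), 50.2% after YA (46.7 to 53.6) and 76.6% after OA (74.0 to 79.1). PER1 gave 6.85 counts for each PER2 count in control, 74.2 in YA and 8.84 in OA. NPAS2 held 73.1% of the counts of NPAS2 and CLOCK in control cells (71.9 to 74.2), 80.0% after YA (79.1 to 80.9) and 70.2% after OA (68.9 to 71.4). These ratios rest on counts and not on length, so they compare libraries and not the genes of a pair.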
